A study of Homo sapiens with 6 samples.

Results

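The genes described here are translation factors and other transcripts of the terminal oligopyrimidine (TOP) kind, without the RPL and RPS ribosomal protein genes. They were chosen as a list of 49 symbols and matched to the gene column of the series table, where all 49 of 26364 genes were found. The symbols were listed by what the genes are and not by a threshold on their values, but with earlier results of these data known. The cells were T47D, an established breast cancer cell line of human origin and luminal A type. They were transfected with an Ambion siRNA that targets ELF5 (siELF5) or with a control siRNA of another catalogue number (siNC), and total RNA was collected 48 h later. Each group held 3 libraries and rested on 1 siRNA product, so a difference between groups compares both products and targets. The labels do not say whether the 3 libraries of a group came from separate cultures, so the p-values measure the spread between libraries, which may be technical.

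Translation initiation factors bring the small ribosomal subunit and the initiator tRNA to an mRNA, and elongation factors carry the ribosome along it. In vertebrates the mRNAs of ribosomal proteins, of the elongation factors and of several initiation factors begin with a C at the cap, followed by an uninterrupted run of pyrimidines. This TOP element lets the kinase complex mTORC1, through LARP1 and the cap-binding factor EIF4E, set how strongly the whole group is translated. The measurements below are of RNA abundance and say nothing of how strongly the RNAs were translated. The comparison asks whether known TOP mRNAs (EEF1 and EEF2 genes, TPT1, NPM1, NACA, GAS5 and the EIF3 subunits) and EIF2 and EIF4 genes differed in RNA level after ELF5 knockdown.

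Shown first are the annotated starts of the members on which the results turn, since the start is what defines a TOP mRNA. RefSeq (GRCh38.p14) gave a start for 38 of the 49 members. Each line holds the 5 bases before the start and the first 20 bases of the transcript, 5′ to 3′ on the coding strand. Capitals mark a run that opens with C at the first transcribed base and goes on with at least 4 further pyrimidines. Where a gene had several starts, the one with the longest run is shown. The first set has the run, and its members did not all do the same in siELF5.
EEF1A1, lower in siELF5, chr6:73521013-73521037, minus strand: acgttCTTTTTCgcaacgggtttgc
EEF1B2, lower in siELF5, chr2:206159890-206159914, plus strand: cgggtCCTTTTTCCTCTCTTCagcg
NACA, lower in siELF5, chr12:56725280-56725304, minus strand: tcggtCTTTCTgccgccatcttggt
FAU, lower in siELF5, chr11:65122115-65122139, minus strand: tcttcCTCTTTCTCgactccatctt
SNHG5, lower in siELF5, chr6:85678714-85678738, minus strand: tcggtCTTTTacgtcggccttcgcg
EIF4B, lower in siELF5, chr12:53006451-53006475, plus strand: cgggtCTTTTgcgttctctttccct
EEF2, did not pass the test, chr19:3985444-3985468, minus strand: gcgttCTCTTCCgccgtcgtcgccg
TPT1, did not pass the test, chr13:45341164-45341188, minus strand: tcggcCTTTTCCgcccgctcccccc
NPM1, did not pass the test, chr5:171387844-171387868, plus strand: gcgtcCTTTCCCTggtgtgattccg
EIF3M, higher in siELF5, chr11:32583826-32583850, plus strand: gttccCTTTTCCggtcggcgtggtc
EIF2S3, higher in siELF5, chrX:24054951-24054975, plus strand: ccttcCTCTTTTggcaacatggcgg

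The second set lacks the run at the annotated start and shows only 4 members that fell. Members without the run were mixed as well. Of the 20 tested, 10 were lower and 2 higher (EIF4EBP2 and EIF1), and the others did not pass the test. No run at an annotated start says only that none opens at the first transcribed base. EIF4G2 holds such a run from the next base on.
GAS5, lower in siELF5, chr1:173869026-173869050, minus strand: aattcagatgtgtttattttggagc
EEF1G, lower in siELF5, chr11:62573872-62573896, minus strand: ggcttactttgcggcagcgccgaga
EIF4G2, lower in siELF5, chr11:10807977-10808001, minus strand: gaagcacttccctaacttgcgcctg
EIF4E, lower in siELF5, chr4:98929114-98929138, minus strand: cggttgtgcgatcagatcgatctaa

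ELF5, an ETS factor that acts in luminal cells of the mammary gland, had normalised read counts of 3678, 3725 and 3638 in siELF5 and of 13225, 13148 and 12910 in siNC. Its level was 28.1% of the siNC mean (log2 fold change -1.83, SE 0.033, limma adjusted p = 3.26e-12), so the target went with the label of all 6 libraries. A normalised read count is the authors' count per gene divided by a factor for the depth of the library, and limma is a linear model fitted to log2 values over all genes. The libraries held 66.8 M to 83.7 M assigned reads. The luminal markers EPCAM, KRT8, KRT18, KRT19, CDH1, ESR1, PGR, GATA3 and FOXA1 all averaged at least 14711 in siELF5 and 15105 in siNC. Of 14 basal, fibroblast and leukocyte markers, 10 averaged about 10 or less in either group, and COL1A1 was the highest at 3473 ± 274 in siELF5 and 4649 ± 582 in siNC (SD, n = 3). Markers moved in both directions: of the 9 luminal markers 4 were higher and 2 lower, between KRT18 at -0.45 and ESR1 at 0.45 on the log2 scale. COL1A1 was lower (-0.42), and the basal TP63 was higher (0.32). The 2 tested leukocyte markers were at 0.08 and 0.45. Of them 1 was called higher, and 0 after the GC correction described below. The part of all these markers in the results below was not tested. The libraries also differed in how GC-rich transcripts were represented. A library GC score, the median log2 deviation of GC-rich genes minus that of genes of middle GC content, was 0.22, 0.28 and 0.22 in siELF5 and -0.39, -0.22 and -0.07 in siNC, with no overlap. Results are therefore also given after a per-library correction for transcript GC content, or with this score as a covariate. Part of the siRNA difference goes into the covariate, since the score separates the groups. The median SE over all genes tested was 0.063 without the covariate and 0.151 with it. A call lost with the covariate therefore does not show that the change went away.

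Most members fell, and each by little. Of the 48 members tested, 26 were lower and 5 higher in siELF5 and 17 did not pass the test (limma adjusted p under 0.05 over 16032 genes). Among all genes tested 23.3% were lower and 23.8% higher, 47.1% in either direction. The median log2 fold change was -0.10 over the members and 0.00 over all genes tested. The 26 that fell had 76.5% to 94.0% of the siNC mean, 21 of them a decrease of under 1.2-fold, and the 5 that rose had 106.0% to 111.4%. No member changed by 0.5 or more on the log2 scale. The count of higher members was 3 without siNC replicate 2, siNC replicate 3, siELF5 replicate 1 or siELF5 replicate 2, and without limma's intensity trend 17 were lower and 2 higher. In bulk RNA, fewer cells that express a gene and less of its RNA per cell cannot be told apart.

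The 3 siELF5 values lay below all 3 siNC values for 29 members (60.4%) and above them for 5 (10.4%), and the groups overlapped for 14. Over all genes tested these shares were 28.0% below and 27.9% above. The members are abundant, and abundant genes fell more often: of 10280 tested genes with a mean at least that of SNHG12, the lowest tested member, 31.8% were lower and 25.5% higher. Most members lay far above that mean, so these genes are not matched to the members in abundance. Together the members took 2.99%, 2.99% and 2.94% of reads in siELF5 and 3.25%, 3.24% and 3.23% in siNC. These shares did not overlap, and they do not depend on the factor that scales a library. Of the difference of -0.266 percentage points between the group means, -0.147 was EEF1A1 alone. The other members took 2.31%, 2.30% and 2.25% in siELF5 and 2.41%, 2.40% and 2.41% in siNC, also without overlap.

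After the GC correction 31 members were lower (64.6%) and 5 higher, against 28.1% lower and 20.9% higher among all genes, and 24 of the 26 members that fell without it were also lower with it. When the library GC score was a covariate, 6 members were lower (12.5%) and 0 higher, against 3.98% and 3.17% of all genes. The 6 were EEF1A1, EEF1D, EEF2, FAU, GAS5 and SNHG8.

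**Figure D1:**
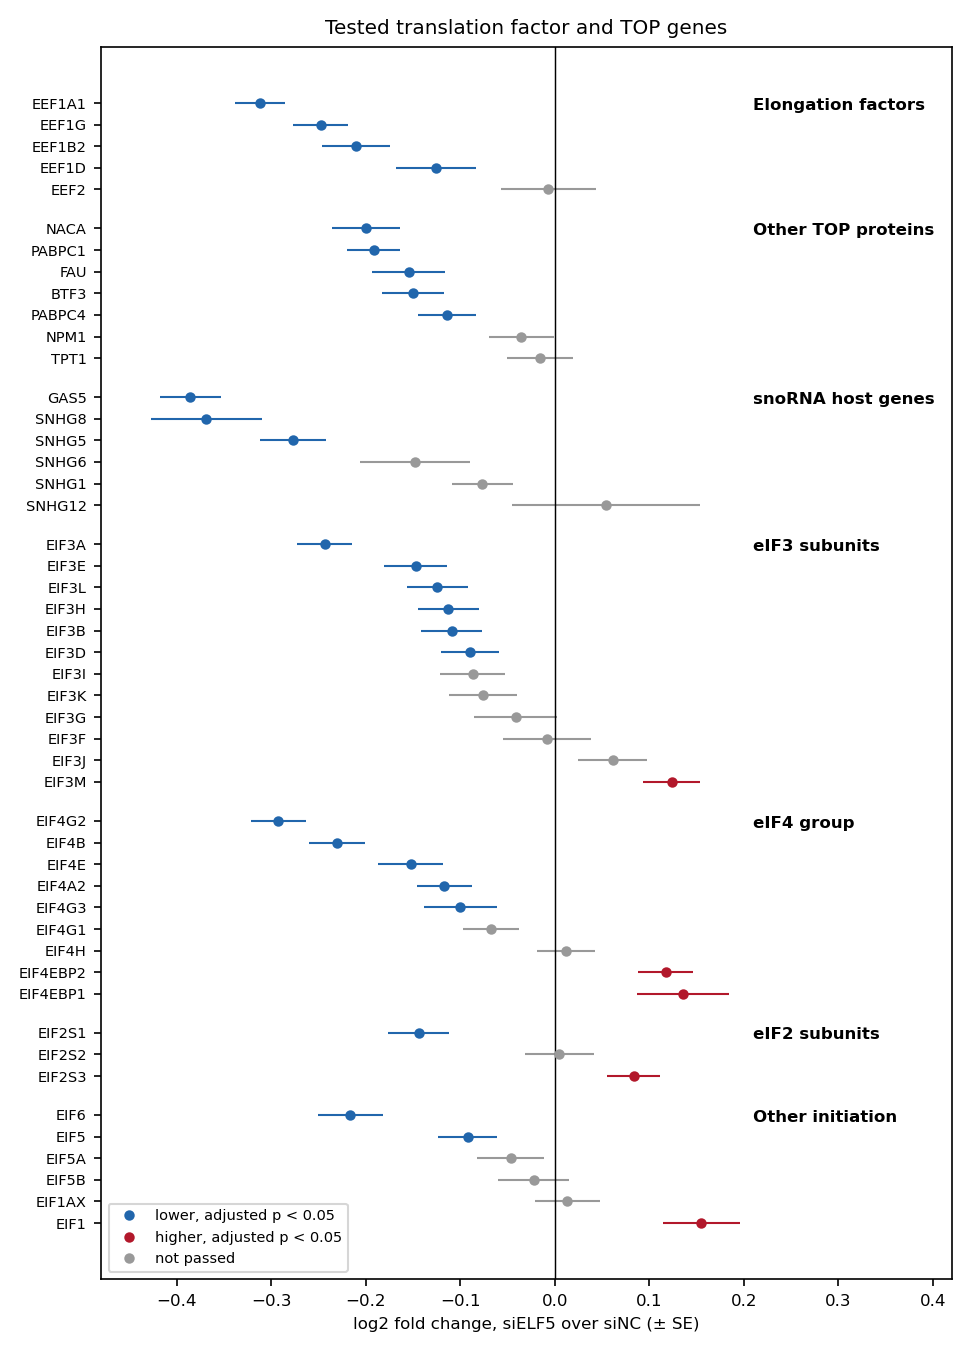
Log2 fold change (siELF5 over siNC, horizontal axis) of each of the 48 tested members, grouped by role, with bars for the limma standard error. Of the members, 26 lie below 0 and 5 above 0 past the threshold, and none reaches 0.5 in either direction.

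Of the 5 elongation factors 4 fell, EEF1A1, EEF1G, EEF1B2 and EEF1D, and the median log2 fold change of the group was -0.21. EEF1A1, which delivers aminoacyl-tRNA to the ribosome, had 521374, 512184 and 510523 normalised read counts in siELF5 and 642910, 643888 and 630089 in siNC. The siELF5 libraries lay close together and all below siNC, at 80.6% of the siNC mean (log2 fold change -0.31, SE 0.027, limma adjusted p = 1.45e-06). EEF1A1 had more reads than any other gene in all 6 libraries, 0.688%, 0.683% and 0.686% of reads in siELF5 and 0.837%, 0.838% and 0.824% in siNC. It was also lower with the GC correction (-0.28) and with the GC score as a covariate (-0.27, adjusted p = 0.0488). GENCODE 29 lists 39 pseudogenes named after EEF1A1, and the handling of shared reads is not stated, so its level is uncertain to that extent.

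The subunits of the EEF1B complex, which recharges EEF1A1 with GTP, fell too. EEF1G, its structural subunit, had 147915, 142342 and 150156 counts in siELF5 and 177765, 173247 and 171896 in siNC. No siELF5 library reached the lowest siNC library, and the level was 84.2% of the siNC mean (log2 fold change -0.25, SE 0.029, limma adjusted p = 2.17e-05). In GENCODE 29, 99.9% of the exonic bases of EEF1G are shared with the readthrough gene AP002990.1, so how its reads were assigned is uncertain. EEF1B2, a nucleotide exchange subunit, had 17634, 16990 and 16150 counts in siELF5 and 20003, 19645 and 19073 in siNC. The groups were again apart, at 86.5% of the siNC mean (log2 fold change -0.21, SE 0.036, limma adjusted p = 0.000407). With the GC score as a covariate neither EEF1G (-0.16) nor EEF1B2 (-0.12) passed the test.

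EEF1D and EEF2, the GC-rich elongation factors, behaved differently. EEF1D, the other exchange subunit, had 21353, 21381 and 21554 counts in siELF5 and 21688, 23708 and 24873 in siNC. The siELF5 libraries were nearly level while siNC replicate 1 came close to them, and the log2 fold change was -0.13 (SE 0.042, limma adjusted p = 0.0264). The call for EEF1D was lost without siNC replicate 2 (adjusted p = 0.103), siNC replicate 3 (0.113), siELF5 replicate 1 (0.0736) or siELF5 replicate 2 (0.0693). EEF2, the translocase that moves the ribosome by a codon, had 144824, 146732 and 141346 counts in siELF5 and 131092, 148563 and 156531 in siNC. Its groups overlapped, with siNC replicate 1 the lowest of the 6 libraries, and it did not pass the test (log2 fold change -0.01, SE 0.050, adjusted p = 0.924). Transcript GC content is 60.6% for EEF1D and 59.9% for EEF2, and both were lower after the GC correction, by 0.35 for EEF1D (adjusted p = 8.23e-09) and by 0.20 for EEF2 (adjusted p = 5.75e-05). With the GC score as a covariate both were lower as well, EEF1D at -0.40 and EEF2 at -0.38 (adjusted p = 0.00243 and 0.00371). In siNC both followed the order of that score, lowest in replicate 1 and highest in replicate 3.

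**Figure D2:**
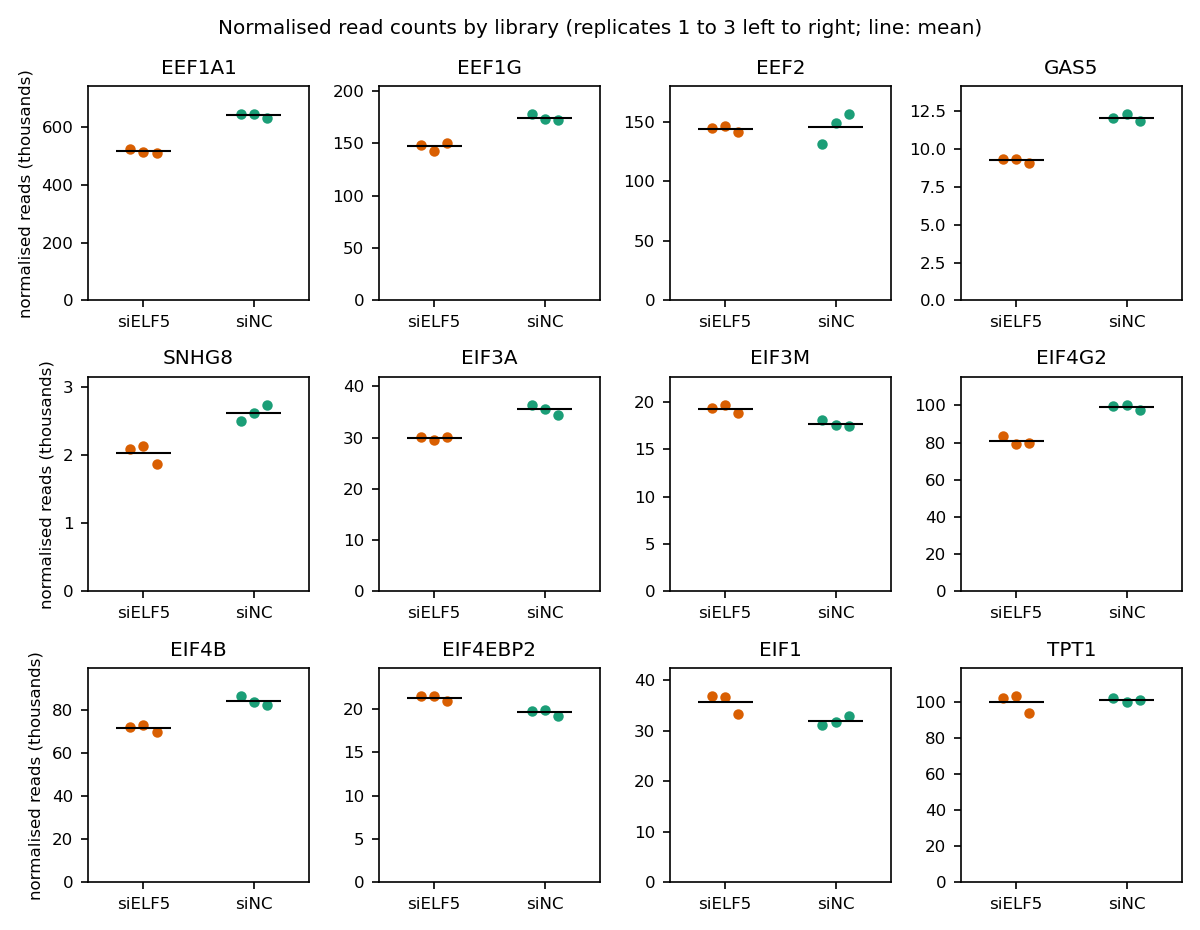
Normalised read counts of 12 members, scaled as each axis label says, 1 panel per gene with an axis from 0, siELF5 to the left of siNC, points for the 3 libraries of each group and a line for their mean. EEF1A1 and GAS5 separate the groups downward and EIF3M upward, and the EEF2 and TPT1 libraries overlap.

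The other TOP proteins fell in 5 of 7 cases, and the exceptions were the nucleolar and growth-related NPM1 and TPT1. PABPC1, the main cytoplasmic poly(A)-binding protein, had 83958, 85169 and 81032 counts in siELF5 and 94690, 95503 and 95475 in siNC. The siNC libraries were within 1% of each other and above every siELF5 library, and the log2 fold change was -0.19 (SE 0.028, limma adjusted p = 0.000111). NACA, the alpha subunit of the nascent polypeptide-associated complex at the ribosome exit, had 68260, 67109 and 63156 counts in siELF5 and 79254, 74934 and 73857 in siNC. Its groups were apart, at 87.1% of the siNC mean (log2 fold change -0.20, SE 0.036, limma adjusted p = 0.000585). BTF3, the beta subunit of the same complex, had 39018, 39304 and 36743 counts in siELF5 and 43735, 42198 and 41735 in siNC. It lay below siNC in all 3 siELF5 libraries as well, at 90.1% (log2 fold change -0.15, SE 0.033, limma adjusted p = 0.00234).

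FAU, which encodes a ubiquitin-like protein fused to a small-subunit ribosomal protein, was at 89.7% of the siNC mean (log2 fold change -0.15, SE 0.039, adjusted p = 0.00548). PABPC4, an inducible poly(A)-binding protein, was at 92.4% (log2 fold change -0.11, SE 0.031, adjusted p = 0.00845). NPM1, a nucleolar chaperone of ribosome assembly, had 174037, 171622 and 160269 counts in siELF5 and 177488, 170945 and 169822 in siNC. The groups overlapped, with siELF5 replicate 3 the lowest library, and the log2 fold change was -0.04 (adjusted p = 0.428). With quantile scaling NPM1 was at 0.11 instead, so no direction is given for it. TPT1, the translationally controlled tumour protein, had 102571, 103570 and 94384 counts in siELF5 and 102274, 100212 and 101132 in siNC. Here too siELF5 replicate 3 was the lowest library and the other siELF5 libraries were at or above siNC, with a log2 fold change of -0.02 (adjusted p = 0.739). GENCODE 29 lists 45 pseudogenes named after NPM1 and 14 named after TPT1, and over all members 27 have at least 1, so reads shared with such copies are a source of uncertainty for them.

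Among the snoRNA host genes, noncoding TOP RNAs whose introns carry small nucleolar RNAs, GAS5, SNHG8 and SNHG5 fell. GAS5, whose spliced RNA is broken down by nonsense-mediated decay when it is translated, had 9333, 9332 and 9037 counts in siELF5 and 12013, 12305 and 11873 in siNC. Every siELF5 library lay far below siNC, at 76.5% of its mean (log2 fold change -0.39, SE 0.032, limma adjusted p = 1.03e-06). GAS5 was also lower with the GC correction (-0.34) and with the GC score as a covariate (-0.37, adjusted p = 0.00958). SNHG5 had 7815, 7531 and 7336 counts in siELF5 and 9254, 9232 and 8997 in siNC. The groups were apart at 82.5% of the siNC mean (log2 fold change -0.28, SE 0.035, limma adjusted p = 3.64e-05). That call was lost with the GC score as a covariate (-0.22, SE 0.090, adjusted p = 0.164). SNHG8 had 2083, 2140 and 1867 counts in siELF5 and 2499, 2624 and 2735 in siNC. It lay at 77.5% with no overlap (log2 fold change -0.37, SE 0.059, limma adjusted p = 0.000227), and at -0.59 with the covariate (adjusted p = 0.0105).

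The remaining hosts did not pass the test. SNHG1 had 6966, 7025 and 6954 counts in siELF5 and 7513, 7289 and 7288 in siNC. Although its groups did not overlap, the difference was small (94.8% of the siNC mean, log2 fold change -0.08, limma adjusted p = 0.0715). SNHG6 had 3009, 3534 and 3019 counts in siELF5 and 3554, 3457 and 3553 in siNC. Its siELF5 replicate 2 lay among the siNC libraries (log2 fold change -0.15, adjusted p = 0.052), and without that library SNHG6 was lower (-0.22, adjusted p = 0.0026). SNHG12 had 597.7, 661.4 and 534.0 counts in siELF5 and 635.9, 569.0 and 521.2 in siNC. The groups overlapped throughout (log2 fold change 0.05, adjusted p = 0.69).

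The EIF3 subunits, which together form the scaffold that recruits the small ribosomal subunit to mRNA, went both ways. Of 12 subunits 6 fell, 1 rose and 5 did not pass the test, with a median log2 fold change of -0.09. EIF3A, the largest core subunit, had 30093, 29623 and 30183 counts in siELF5 and 36368, 35645 and 34439 in siNC. The siELF5 libraries were almost level and all below siNC, at 84.5% (log2 fold change -0.24, SE 0.029, limma adjusted p = 2.56e-05). EIF3E had 41653, 41186 and 38848 counts in siELF5 and 46296, 44281 and 44173 in siNC. It was also lower in all 3 siELF5 libraries, at 90.3% (log2 fold change -0.15, SE 0.033, limma adjusted p = 0.00287). EIF3M had 19413, 19688 and 18813 counts in siELF5 and 18067, 17595 and 17499 in siNC. It was the only subunit past the threshold in the other direction, with every siELF5 library above siNC at 108.9% (log2 fold change 0.12, SE 0.030, limma adjusted p = 0.00489).

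The other EIF3 subunits that fell were EIF3L (-0.12), EIF3H (-0.11), EIF3B (-0.11) and EIF3D (-0.09, adjusted p = 0.0303), at 91.7% to 94.0% of the siNC mean. For EIF3L, 52.0% of exonic bases are shared with other genes in GENCODE 29, one of them on the opposite strand, and the library kit does not mark strand, so its level is uncertain. The calls for EIF3B and EIF3D each depended on single libraries: EIF3B was lost without siNC replicate 2 (adjusted p = 0.0597) or siELF5 replicate 2 (0.0657), and EIF3D without replicate 1 or 2 of either group. EIF3B under the GC score covariate was at 0.011 (SE 0.078, adjusted p = 0.958), so no direction is given for it under that setting. EIF3I (-0.09), EIF3K (-0.08), EIF3G (-0.04), EIF3F (-0.01) and EIF3J (0.06) did not pass the test. EIF3G, with a GC content of 60.3%, was lower after the GC correction (-0.26, adjusted p = 4.57e-05). The correction also called EIF3I (-0.08, adjusted p = 0.0425) and EIF3K (-0.09, adjusted p = 0.0277) lower and EIF3J higher (0.10, adjusted p = 0.0185). EIF3I also passed without siELF5 replicate 1 (adjusted p = 0.017), and EIF3J without siELF5 replicate 3 (0.0273). With the GC score as a covariate 0 of 12 subunits passed in either direction, against 3.98% lower and 3.17% higher among all genes.

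The EIF4 group, which recognises and unwinds the capped end of the mRNA, held both some of the larger decreases and a pair of increases. Of 9 tested genes 5 fell, 2 rose and 2 did not pass. EIF4G2, a scaffold protein related to EIF4G1 that lacks the EIF4E-binding part, had 83650, 79432 and 80024 counts in siELF5 and 99821, 100263 and 97646 in siNC. The groups were well apart at 81.7% of the siNC mean (log2 fold change -0.29, SE 0.029, limma adjusted p = 4.85e-06). EIF4B, a cofactor of the helicase EIF4A, had 72012, 73090 and 69695 counts in siELF5 and 86328, 83445 and 82204 in siNC. It lay below siNC in all 3 siELF5 libraries, at 85.2% (log2 fold change -0.23, SE 0.030, limma adjusted p = 4.67e-05). EIF4E, the cap-binding protein itself, had 9650, 9670 and 9408 counts in siELF5 and 11076, 10470 and 10400 in siNC. Its decrease was smaller, to 89.9% with no overlap (log2 fold change -0.15, SE 0.035, limma adjusted p = 0.00287). EIF4A2, one of the EIF4A helicases, was at 92.2% (log2 fold change -0.12, adjusted p = 0.00529).

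The genes that rose in this group were those of the EIF4E-binding proteins, which block EIF4E until mTORC1 phosphorylates them. EIF4EBP2 had 21459, 21410 and 20891 counts in siELF5 and 19741, 19848 and 19189 in siNC. All siELF5 libraries lay above siNC, at 108.5% (log2 fold change 0.12, SE 0.029, limma adjusted p = 0.00505), and the value was 0.17 after the GC correction. EIF4EBP1 had 4025, 4129 and 3657 counts in siELF5 and 3495, 3645 and 3602 in siNC. The gap between siELF5 replicate 3 and siNC replicate 2 was narrow, and the log2 fold change was 0.14 (SE 0.049, limma adjusted p = 0.0362). This call was lost when any library other than siELF5 replicate 3 was left out, with adjusted p of 0.0788, 0.0692 and 0.0515 without siNC replicates 1, 2 and 3 and of 0.127 and 0.155 without siELF5 replicates 1 and 2. EIF4EBP1 is the most GC-rich member (65.5%), and after the GC correction it was lower in siELF5, at -0.46 (adjusted p = 1.14e-05), so its direction turned. EIF4G3 narrowly passed (-0.10, adjusted p = 0.0474) and lost its call without any one library other than siNC replicate 3. When the GC score was a covariate, EIF4G3 was at 0.087 (SE 0.085, adjusted p = 0.63), so no direction is given for it there. EIF4G1 (-0.07, adjusted p = 0.0796) and EIF4H (0.01) did not pass. EIF4G1 was called lower after the GC correction (-0.16, adjusted p = 0.000228) and without siELF5 replicate 3 (adjusted p = 0.0415), and with quantile scaling it was lower and EIF4H higher (0.088). EIF4A1 was listed at 0 in all 6 libraries and was not tested; in GENCODE 29 all of its exonic bases (100%) are shared with overlapping readthrough genes.

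The EIF2 subunits, which carry the initiator tRNA, did not move together. EIF2S1, the alpha subunit that stress kinases phosphorylate, had 25250, 24490 and 23580 counts in siELF5 and 27655, 26922 and 26437 in siNC. It fell to 90.5% with no overlap (log2 fold change -0.14, SE 0.033, limma adjusted p = 0.00289). EIF2S2, the beta subunit, had 26830, 26752 and 24462 counts in siELF5 and 26242, 25761 and 25721 in siNC. Its groups overlapped because siELF5 replicate 3 was the lowest library, and the log2 fold change was 0.00 (adjusted p = 0.931). EIF2S3, the gamma subunit that binds the tRNA, had 47505, 47955 and 46346 counts in siELF5 and 45650, 44096 and 44094 in siNC. It was higher in every siELF5 library, at 106.0% (log2 fold change 0.08, SE 0.028, limma adjusted p = 0.0279). That call was lost without siNC replicate 2 (adjusted p = 0.128), siNC replicate 3 (0.0937), siELF5 replicate 1 (0.0777) or siELF5 replicate 2 (0.0909).

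Of the other 6 initiation factors 2 fell, EIF6 and EIF5, and EIF1 rose. EIF6, which keeps the large ribosomal subunit from joining too early, had 11755, 11163 and 11761 counts in siELF5 and 13104, 13871 and 13314 in siNC. The groups were apart at 86.1% (log2 fold change -0.22, SE 0.035, limma adjusted p = 0.000253), and the value was -0.33 after the GC correction. EIF1, which guards the choice of start codon, had 36849, 36729 and 33193 counts in siELF5 and 31040, 31791 and 32979 in siNC. It was higher in all 3 siELF5 libraries, at 111.4% (log2 fold change 0.16, SE 0.041, limma adjusted p = 0.00714), although siELF5 replicate 3 came close to siNC replicate 3. The call for EIF1 was lost without the intensity trend (adjusted p = 0.0775). Given the GC score as a covariate, EIF1 was at 0.01 (adjusted p = 0.968).

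EIF5, which makes EIF2 hydrolyse its GTP at the start codon, had 30490, 29867 and 28513 counts in siELF5 and 31628, 31864 and 31205 in siNC. It lay at 93.8% (log2 fold change -0.09, SE 0.031, limma adjusted p = 0.0269), a call that was lost after the GC correction (-0.05, adjusted p = 0.123) and without siNC replicate 2 or siELF5 replicate 3. EIF5A, a hypusine-carrying factor that relieves stalled ribosomes, had 31637, 30483 and 28678 counts in siELF5 and 31344, 31459 and 30923 in siNC. Its groups overlapped (log2 fold change -0.05, adjusted p = 0.299), and after the GC correction it was lower (-0.14, adjusted p = 0.0093). EIF5B, the GTPase of subunit joining, had 15739, 15160 and 14481 counts in siELF5 and 15847, 15369 and 14861 in siNC. The libraries of both groups were interleaved (log2 fold change -0.02, adjusted p = 0.656). EIF1AX, which works with EIF1 in scanning, had 19947, 20706 and 18957 counts in siELF5 and 19890, 19658 and 19487 in siNC. It overlapped too (log2 fold change 0.01, adjusted p = 0.785).

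**Figure D3:**
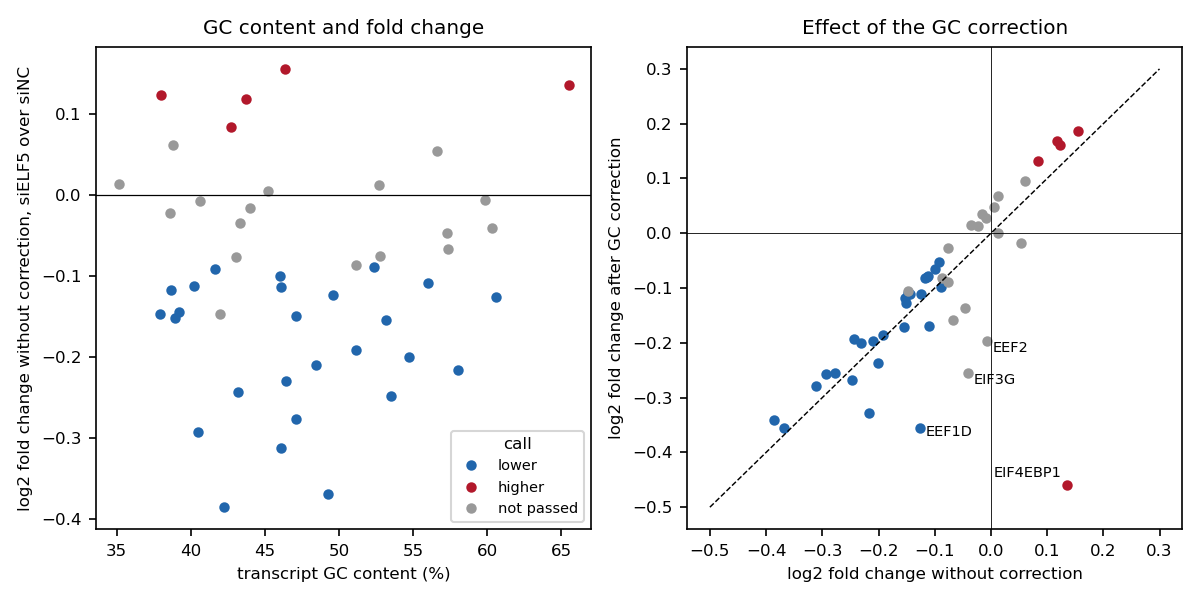
Left, log2 fold change without correction (siELF5 over siNC) of each tested member against transcript GC content in percent; right, log2 fold change after the per-library GC correction against that without it, with a dashed line where both are equal and colours for the uncorrected call. EIF4EBP1 is at 0.14 without and -0.46 with the correction, and EEF1D, EEF2 and EIF3G lie below the line.

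Set side by side, the known TOP mRNAs and the EIF2 and EIF4 genes both had medians below 0. The sets do not separate by annotated start. In the EIF2 and EIF4 set EIF4B, EIF4A2 and EIF2S3 have the pyrimidine run. Among the known TOP mRNAs EEF1G, GAS5, EIF3B, EIF3I and EIF3J have a start without it, and some have no RefSeq start. The 21 known TOP mRNAs counted here are those named at the outset. They leave out BTF3, PABPC1, PABPC4, FAU and the SNHG hosts, which are also described above as TOP RNAs. Of the 21, 12 were lower and 1 higher, with a median log2 fold change of -0.11. Of the 12 tested EIF2 and EIF4 genes 6 were lower and 3 higher, with a median of -0.08. The shares over all genes tested were 23.3% lower and 23.8% higher. By library, the median log2 deviation of the TOP mRNAs from each gene's own mean was -0.01, -0.07 and -0.09 in siELF5 and 0.06, 0.06 and 0.05 in siNC. That of the EIF2 and EIF4 genes was -0.01, -0.04 and -0.06 in siELF5 and 0.06, 0.05 and 0.02 in siNC. Both sets thus had their lowest value in siELF5 replicate 3 and lay nearest to siNC in siELF5 replicate 1. After the GC correction 16 of the TOP mRNAs were lower and 2 higher, and 7 of the EIF2 and EIF4 genes were lower and 2 higher. Of all genes 28.1% were lower and 20.9% higher with that correction. With the GC score as a covariate 4 of the TOP mRNAs and 0 of the EIF2 and EIF4 genes were lower, and 0 of either were higher. The covariate left 3.98% of all genes lower and 3.17% higher, so 0 of 12 is near the share over all genes. By quantile scaling the medians were -0.050 for the TOP mRNAs and -0.053 for the EIF2 and EIF4 genes, and with the covariate -0.067 and -0.035, so the order of the sets depended on the setting. Without the intensity trend 7 of the TOP mRNAs were lower. Whether the sets differ was not tested.

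Members with and without the pyrimidine run at the annotated start had the same median change. A run of C and at least 4 further pyrimidines at the first base was found for 17 of the 38 members with a RefSeq start. The same run opens a start of 1404 of the 27305 genes in that table (5.14%). Of the 17 members with it 9 were lower and 2 higher, with a median log2 fold change of -0.09. Of the 20 tested members without it 10 were lower and 2 higher, also with a median of -0.09. The run was present at EEF1A1 (-0.31) and at EEF2 (-0.01). It did not open at the first base of GAS5 (-0.39) or of EIF4G2 (-0.29), and in EIF4G2 it opens at the next base. In SNHG8 (-0.37) pyrimidines run from before the annotated start to its first base. GAS5, SNHG8 and EEF1G count as without the run but are named above as TOP RNAs. The counts therefore sort annotated starts and not TOP status.

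The share of lower genes was also counted beyond the members. Of 853 tested genes with it 29.2% were lower, against 24.6% of 11285 without it. Of the 46 ribosomal protein genes with the run 38 were lower and 2 higher, with a median of -0.21. Of the 790 tested genes with the run that are neither ribosomal protein genes nor members, 25.6% were lower and 24.6% higher, with a median of 0.00. Among genes at least as abundant as the lowest member the shares lower were 32.4% with the run, ribosomal protein genes and members left out, and 31.8% without it. These counts describe annotated starts, and the starts used in T47D cells were not measured.

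**Figure D4:**
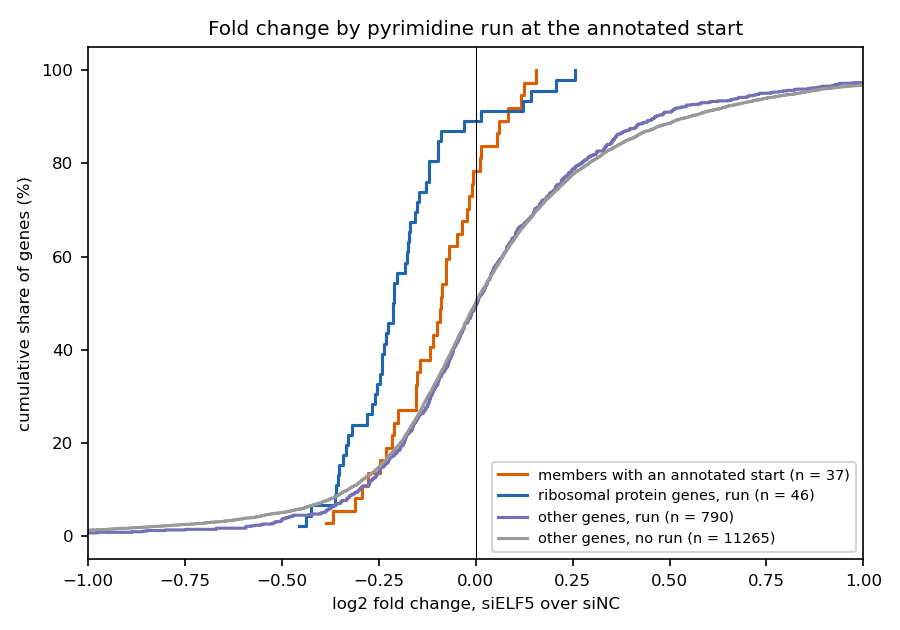
Cumulative share of genes in percent by log2 fold change (siELF5 over siNC) for the 37 tested members with an annotated start, for ribosomal protein genes with a pyrimidine run at the start, and for other genes with and without the run; the axis ends at 1 in either direction. The curve of ribosomal protein genes lies to the left (median -0.21), and that of the other genes with the run has a median of 0.00.

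Genes that work with the members were counted by list. Over all genes tested 23.3% were lower and 23.8% higher. Of 11 other snoRNA host genes 8 fell (72.7%) and 1 rose (9.09%), and the median log2 fold change was -0.21. ZFAS1, a host RNA antisense to ZNFX1, had 7151 ± 473 counts in siELF5 and 10110 ± 283 in siNC (SD, n = 3), a log2 fold change of -0.50 (limma adjusted p = 2.52e-06). SNHG15 had 2120 ± 74.2 counts in siELF5 and 2892 ± 108 in siNC (log2 fold change -0.45), and SNHG16 had 12799 ± 158 in siELF5 and 16944 ± 323 in siNC (-0.40). Under the GC score covariate 2 of the 11 were lower, against 3.98% of all genes. Since the kit does not mark strand, reads of antisense hosts and of the genes opposite cannot be told apart. Of 10 nonsense-mediated decay genes 6 fell (60%) and 0 rose, with a median of -0.19. SMG6, the endonuclease of the pathway, was at -0.39 (adjusted p = 8.31e-06), SMG9 at -0.34 and SMG5 at -0.22. None of the 10 passed with the GC score as a covariate, against 3.98% lower and 3.17% higher among all genes.

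Among other known TOP mRNAs, GNB2L1 (-0.15, limma adjusted p = 0.000956), which encodes the ribosomal scaffold RACK1, fell, and LDHB (0.31, adjusted p = 0.0144), a lactate dehydrogenase subunit, was higher. LDHB no longer passed when siNC replicate 3 was left out (adjusted p = 0.0555), nor without replicate 1 (0.0503) or 2 (0.0535) of siELF5, with quantile scaling or with the covariate. Of 10 cap and poly(A) regulators 3 fell (30%) and 2 rose (20%), near the shares over all genes. LARP1, the protein that binds TOP elements, had 36365 ± 1604 counts in siELF5 and 44988 ± 777 in siNC (SD, n = 3), a log2 fold change of -0.31 (limma adjusted p = 1.2e-05). LARP1 did not pass under the GC score covariate (-0.26, adjusted p = 0.0749). PDCD4, an inhibitor of EIF4A, was at -0.17, and PAIP1, a partner of PABPC1, at -0.19. Of 12 tested genes of mTORC1 signalling 2 fell and 2 rose (16.7% each), with a median of -0.01. RPS6KB1, the S6 kinase, was at 0.24, while TSC1, a brake on mTORC1, was at -0.30 and DEPTOR, an mTOR-binding inhibitor, at -0.18, a call lost without siELF5 replicate 2 (adjusted p = 0.0568). After the GC correction 8 of the 12 were lower and 1 higher, against 28.1% and 20.9% of all genes.

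Of 11 tested elongation and termination genes 4 rose (36.4%) and 2 fell (18.2%). EEF2K, the kinase that phosphorylates and inhibits EEF2, had 4903 ± 61.6 counts in siELF5 and 3671 ± 84.0 in siNC (SD, n = 3), a log2 fold change of 0.42 (limma adjusted p = 2.19e-06). The enzymes that make hypusine on EIF5A went opposite ways: DHPS had 2806 ± 38.7 counts in siELF5 and 3582 ± 116 in siNC (-0.35), and DOHH had 1117 ± 106 in siELF5 and 638 ± 93.4 in siNC (0.81). DOHH has a GC content of 67.5% and was at 0.05 after the GC correction. Of 11 EIF2B subunits, EIF2 kinases and related genes 3 fell and 3 rose (27.3% each), near the shares over all genes. Among them were EIF2A (-0.22), an initiator tRNA-binding protein, EIF2B5 (-0.20), the catalytic EIF2B subunit, and EIF2AK3 (0.16), the kinase PERK. The call for EIF2AK3 was lost without siELF5 replicate 2 (adjusted p = 0.0517). Of 10 tested paralogs of initiation factors 1 (10%) fell, EIF5A2 (-0.22), and 2 (20%) were higher, MCTS1 (0.11) and EIF4E3 (0.13). Both of these calls were lost without replicate 2 or 3 of siNC or replicate 1 or 2 of siELF5 (adjusted p of 0.0627 to 0.105 for MCTS1 and 0.0789 to 0.128 for EIF4E3), without the intensity trend and with the GC score covariate.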

How the data were processed

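RNA-seq libraries of T47D cells, 3 with siELF5 and 3 with siNC, came from Illumina's unstranded TruSeq RNA kit v2, per the labels. STAR 2.6, Subread, featureCounts 1.6.3, DESeq2 1.22.1 and the build hg19 are named, per the submitters' processing notes, and no source used here gives counting options. Deposited values per library, and their mean, are signal: gene counts divided by a size factor. Of them 100% were whole multiples of the column's smallest (tolerance 1e-06), so whole reads were recovered, 66.8 M to 83.7 M per library. Replicates of a group differed by more than sampling noise (chi-square per degree of freedom 4.71 to 13.5). The deposited log2 fold change, its standard error, the deposited test score and the deposited p-value come from the authors' DESeq2 run, per the file headers, and entered no test. The authors' deposited table called 26 members lower and 5 higher, against 3541 and 3562 of all genes.

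Two-sided tests used limma 3.58.1 (R 4.3.3) with its trend option, applied to log2(value + 1) over the 16032 genes with a mean of at least 10, with Benjamini-Hochberg adjustment over all of them and a threshold of 0.05. Fold changes are on that scale, which understates low genes. The test was checked on simulated data. For the GC correction, deviations from the gene mean were fitted in each library by loess (span 0.3) on the GC content of its longest GENCODE 29 transcript, and the fit was subtracted; GC content was known for 14924 tested genes (93.1%); the others stayed uncorrected. The covariate was the library GC score. Alternatives were edgeR 4.0.16 and DESeq2 1.42.0 on recovered reads, other pseudocounts, filters and scalings, a replicate block and leaving out each library. Members, lists and tests were chosen with earlier results of these data known. Values by library are given for the 3 smallest adjusted p per role group, for all of a group of up to 6 and for any change of at least 0.5 (log2), and from other lists up to 3 genes that passed, of which 1 is not reported here. Starts come from RefSeq, GRCh38.p14, by symbol; counts are on hg19, and no coordinate was converted.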

Additional observations from a re-analysis of the deposited data

How the results depend on the processing

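Of the 48 tested members 9 kept their side of the threshold under all 18 alternatives and 25 did so leaving aside the GC score covariate. Of the 9, GAS5, SNHG8 and SNHG1 stayed below 0 throughout. TPT1, EIF2S2, EIF1AX, EIF3F, EIF5B and SNHG12 never passed and had values on both sides of 0. With that covariate 1147 genes were called, 0 members were higher and 6 lower, 4 of the known TOP mRNAs and 0 of the EIF2 and EIF4 genes were lower, and the medians were -0.067 and -0.035. Without the intensity trend 2 members were higher and 17 lower, 7 of them known TOP mRNAs. With quantile scaling 8 members were higher, and the medians were -0.050 and -0.053; EEF1A1, the most abundant gene in each library, can show no change there by construction. With equal column totals the medians were -0.078 for TOP mRNAs and -0.052 for EIF2 and EIF4 genes. Where a call passed in the main setting or in the alternative, the sign changed for EIF3B (0.011) and EIF4G3 (0.087) with the covariate. Neither passed there, so no direction is given for them under that setting. The sign also changed for EIF4EBP1 with the GC correction (-0.46) and for NPM1 with quantile scaling (0.11). Changes of sign between settings that both did not pass, such as EEF2 at up to 0.12, are left out of this list. The cause was not tested. Leaving out 1 library in turn gave 6164 to 7312 genes called, 3 to 6 members higher and 21 to 25 lower, 9 to 12 TOP mRNAs and 5 to 6 EIF2 and EIF4 genes lower, and medians of -0.12 to -0.08 and of -0.10 to -0.06; the 3 came without siNC replicate 2 or 3 or siELF5 replicate 1 or 2. EdgeR called 7578 genes, with 27 members lower and 5 higher, and DESeq2 called 7292, with the same member counts.

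Replicate numbers are shared between the groups, but libraries with the same number did not deviate together (correlations 0.01, -0.03 and -0.06), so the numbers do not pair the libraries. With the replicate block 7174 genes were called, 26 members lower and 5 higher, with 12 TOP mRNAs and 6 EIF2 and EIF4 genes lower. What limits the calls (depth, 3 libraries a group or the GC difference between groups) was not compared.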

Other observations

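A 7-base motif found by an earlier search of these data (CACTAAC or ACTAACA) was present in the 3' UTR of 6 of 42 members searched (14.3%), namely TPT1, EIF3A, EIF4EBP2, EIF2S1, EIF1AX and EIF5, and in 1504 of 13459 tested genes (11.2%). Of these 6, EIF3A, EIF2S1 and EIF5 were lower in siELF5, EIF4EBP2 was higher, and TPT1 and EIF1AX did not pass the test.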
